A study of Rattus norvegicus with 12 samples.

Results

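The contractile genes of skeletal, heart and smooth muscle were examined in kidneys of Sprague-Dawley rat fetuses at 19 days of gestation. Members were the genes whose single symbol in the array annotation named a muscle or muscle-related myosin heavy or light chain, a myosin light chain kinase, a troponin, a tropomyosin, an actin, an alpha-actinin, a calsequestrin, a myomesin, a myosin-binding protein, a sarcoglycan or a transgelin. This gave 45 genes of 14557 with a single symbol, from a table of 36685 rows, and 1 row per gene was used, that of the highest mean over all 12 arrays. Of the 45 genes, 11 were placed with skeletal muscle, 11 with both skeletal muscle and heart, 7 with heart, 4 with smooth muscle and 11 with cells of many kinds, and Myl10 was not placed. A further 25 genes of these families are unnamed here, among them Acta2 and Myh11, the usual smooth muscle actin and myosin heavy chain, and Actc1, the cardiac actin.

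Both groups were offspring of females mated under a regular photoperiod. LD mothers stayed in 12:12 h light and dark through gestation, and CPS mothers lived under chronic photoperiod shifting, a scheme that repeatedly reversed light and dark from the start of gestation, until a return to the regular schedule shortly before dissection. Each of the 12 arrays, 6 of LD and 6 of CPS, held RNA of a non-sexed pool of kidneys from 6 fetuses, read here as the fetuses of 1 mother. The clock hour of dissection is given as 8 h in the treatment description and as 20 h in the sample annotation, for both groups alike. Values are log2 values after Robust Multiarray Average (RMA), so a difference of 1 is a doubling of signal. A pool of whole kidneys is a bulk sample, in which fewer cells of a type and less RNA per cell cannot be told apart.

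Striated muscle shortens when myosin heads pull on actin filaments within sarcomeres, and calcium starts this by binding troponin C, which moves tropomyosin off the actin. Skeletal muscle and heart use different genes for many of these parts, and fetal muscle uses its own set, such as the embryonic myosin heavy chain Myh3. Smooth muscle has no troponin, and calcium acts there through myosin light chain kinase. In the fetal kidney, smooth muscle lies in the walls of arteries, in the renal pelvis and in the ureter, and skeletal muscle is not a part of the organ.

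Promoter sequences were available from RefSeq (GRCr8) for 37 of the 45 genes, as 250 bases before to 50 bases after the start of transcription. Below, 4 are shown for the skeletal genes that the comparison turns on: the skeletal actin gene Acta1, the genes Tnnc2 and Casq1, which were higher in CPS, and Myh4, which was lower. Capitals mark CArG boxes, the binding sequence of serum response factor, MEF2 sites, and E-boxes (CANNTG), the binding sequence of MyoD and its relatives. Both strands were searched, and no base is shared by 2 of the marked motifs in these 4 windows.
Acta1, chr19:68784145-68784444, minus strand: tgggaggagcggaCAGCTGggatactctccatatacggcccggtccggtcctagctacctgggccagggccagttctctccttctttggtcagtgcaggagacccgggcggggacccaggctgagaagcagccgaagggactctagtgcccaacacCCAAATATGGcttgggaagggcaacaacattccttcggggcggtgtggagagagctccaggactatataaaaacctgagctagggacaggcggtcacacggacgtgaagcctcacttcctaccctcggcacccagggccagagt
Tnnc2, chr3:173935290-173935589, minus strand: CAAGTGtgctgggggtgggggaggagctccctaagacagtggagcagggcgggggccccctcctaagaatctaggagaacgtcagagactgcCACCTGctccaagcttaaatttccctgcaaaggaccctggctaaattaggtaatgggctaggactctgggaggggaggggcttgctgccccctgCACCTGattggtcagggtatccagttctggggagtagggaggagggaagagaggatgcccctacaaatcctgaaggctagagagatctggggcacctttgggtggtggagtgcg
Casq1, chr13:87212661-87212960, minus strand: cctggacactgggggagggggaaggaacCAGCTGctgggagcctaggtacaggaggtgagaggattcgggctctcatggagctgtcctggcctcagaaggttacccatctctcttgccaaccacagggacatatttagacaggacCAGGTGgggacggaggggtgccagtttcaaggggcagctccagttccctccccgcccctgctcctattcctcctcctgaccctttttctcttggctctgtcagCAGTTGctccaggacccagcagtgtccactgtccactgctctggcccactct
Myh4, chr10:52421898-52422197, plus strand: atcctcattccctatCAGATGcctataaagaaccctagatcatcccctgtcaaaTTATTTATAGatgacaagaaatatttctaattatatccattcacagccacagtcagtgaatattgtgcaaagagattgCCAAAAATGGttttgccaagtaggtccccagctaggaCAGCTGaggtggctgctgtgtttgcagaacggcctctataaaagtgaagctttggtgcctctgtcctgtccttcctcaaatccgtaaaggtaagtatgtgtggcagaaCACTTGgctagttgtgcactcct
A CArG box was found in Acta1, at -94 from the start, and in Myh4, at -118, where a MEF2 site lay at -196. Tnnc2 and Casq1 held 3 E-boxes each and neither of the other motifs. A CArG box was present in 3 of the 40 promoters of the members (7.5%) and in 1.64% of all 33469 promoters of that length. For the MEF2 site the shares were 12.5% and 3.29%, for any E-box 77.5% and 72.1%, and for the E-box CAGCTG 32.5% and 15.1%. The 40 promoters came from 37 genes, since Tpm3 and Tnnt2 had windows at different starts. All Tpm3 windows held CAGCTG, and overlapping ones counted the same site again, which raises the share of the members. These matches describe letters in the window and are no evidence of binding.

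The arrays carried the signal of kidney. All 13 measured genes of kidney epithelium, among them the progenitor factor Six2 and the tubule factors Pax2 and Pax8, lay above the level of dim rows, and their mean ranged from 7.06 to 7.34 in LD and from 7.14 to 7.47 in CPS. A row was called dim below 3.03, the 95th percentile of the mean values of 68 olfactory receptor genes, and 11 of the 45 members were dim. CPS replicate 1 stood apart in muscle genes and in some genes of the pancreas. In this array 41 genes lay at least 1 log2 unit above every other array, against 0 to 3 genes in each of the other 11 arrays, and 12 of the 41 were members. Array medians ranged from 3.31 to 3.50, and correlations between arrays from 0.978 to 0.987. Results are therefore given with and without CPS replicate 1, and without CPS replicates 1 and 6 where replicate 6 came second.

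At an unadjusted p under 0.05, the threshold the study states, 4 members in limma were higher in CPS (Tnnc2, Casq1, Tnnt2 and Sgcd), 2 were lower (Myh4 and Tagln) and 39 did not pass. By the methods' unpaired one-way test 3 were higher, without Sgcd, and 2 lower, against 3.36% and 2.56% of all genes. In limma 2.94% of all genes with a single symbol were called higher and 1.78% lower, 4.72% in either direction. Over all rows, named or not, 2.38% were higher and 2.93% lower (5.3% together). With each array centred on its median, 6 members were higher and 1 lower, against 3.65% and 0.659% of all genes. Without CPS replicate 1, again 4 members were higher and 2 lower, against 4.36% of all genes in either direction, and without CPS replicates 1 and 6 the counts were 1 and 1, against 6.24%. After adjustment over all rows no gene passed in limma (0 of 36685, against 1946 at the unadjusted threshold), and the lowest adjusted p, 0.887, was also that of the lowest member. The median difference of the members was 0.05 on the log2 scale, against 0.01 for all genes. The members differed from each other by muscle type. The median difference was 0.74 for skeletal genes, 0.43 for those shared by skeletal muscle and heart, -0.07 for heart genes and -0.06 for smooth muscle genes. It was 0.00 for the genes placed with cells of many kinds. For skeletal genes the median was 0.36 without CPS replicate 1 and 0.16 without CPS replicates 1 and 6.

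**Figure D1:**
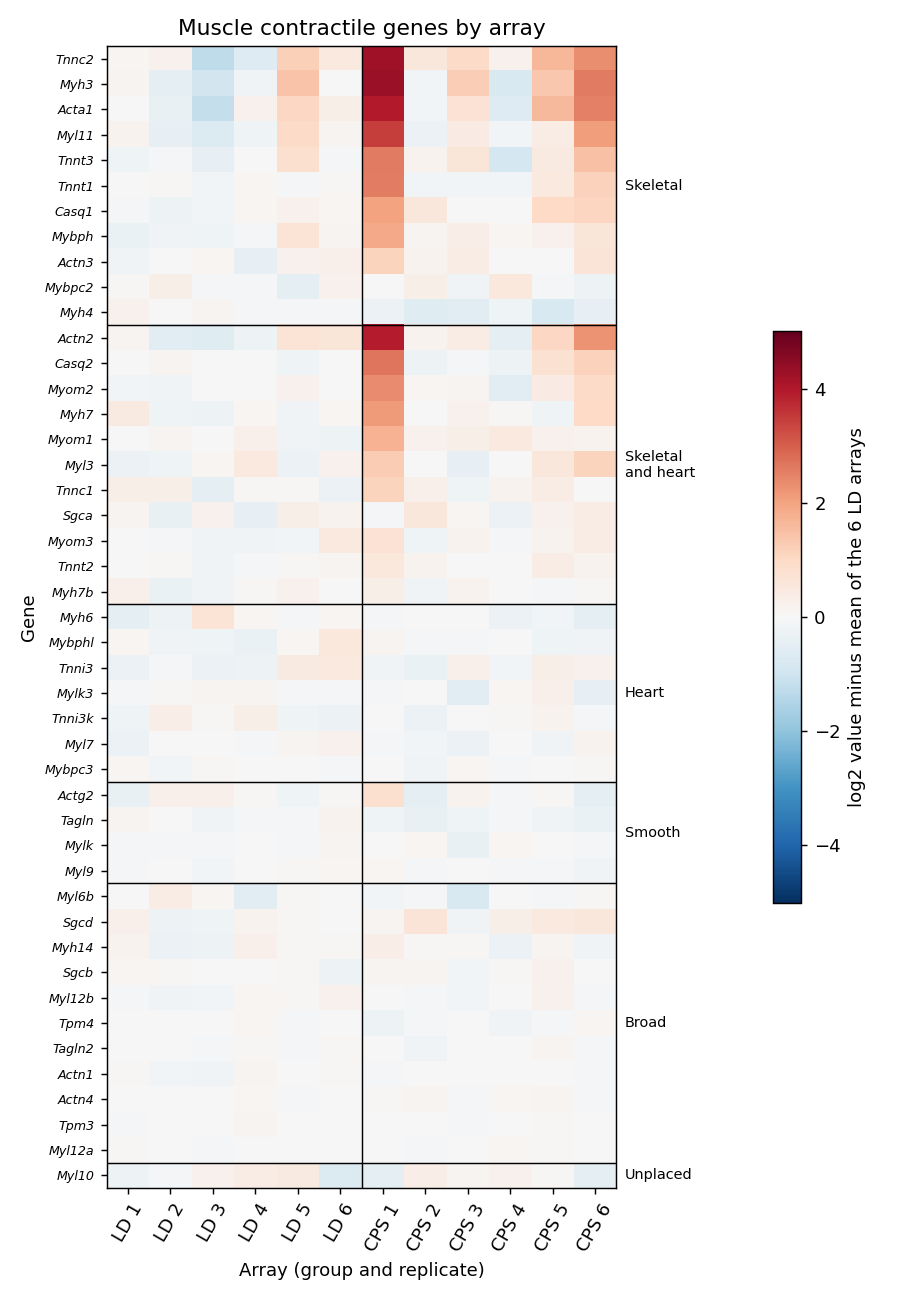
Heat map of the 45 contractile genes (rows, grouped by muscle class) over the 12 arrays (columns, LD then CPS), coloured by the log2 value minus the mean of the 6 LD arrays. Most skeletal and shared rows are high in CPS replicate 1 and, less so, in CPS replicate 6, and the heart, smooth and broad rows stay near the LD mean.

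Among skeletal genes, the fast troponin C Tnnc2, the embryonic myosin Myh3 and the skeletal actin Acta1 had the widest ranges over the 12 arrays, 5.52, 5.25 and 5.18. Of the 11 skeletal genes, 10 had a positive difference, 2 were called higher and 1 lower, and 8 did not pass. A positive difference was found in 7799 of all 14557 genes, and 2.94% were called higher and 1.78% lower. The genes of a class share the same 12 arrays, so such counts are not of independent results. CPS replicate 1 was the highest of the 12 arrays in 9 of the 11, and in 8 of those CPS replicate 6 was second. Over all genes these shares were 10.2% and 0.852%.

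Tnnc2, the calcium-binding troponin C of fast fibres, had an LD range of 2.22 to 4.68 with a median of 3.65. In CPS it ranged from 3.71 to 7.75 with a median of 4.82. The highest CPS value was that of replicate 1 and the next, 5.83, that of replicate 6, and 3 CPS arrays lay above every LD array. The difference was 1.66 ± 0.63 (SE, 6 arrays a group), a 3.16-fold higher mean signal (limma p = 0.0216, exact permutation p = 0.0303). Without CPS replicate 1 it was 1.14 and still passed in limma, and without CPS replicates 1 and 6 it was 0.85 and did not pass. Leaving out LD replicate 3, the lowest array, also ended the call (difference 1.40). That array and LD replicate 4, at 2.22 and 2.85, were below the dim level, so the fold rests in part on such values.

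Casq1, which stores calcium in the sarcoplasmic reticulum of fast fibres, ranged from 2.67 to 3.14 in LD, with a median of 2.93. Its CPS range was 2.89 to 4.92, with a median of 3.67, and 4 of the 6 CPS arrays were above all LD arrays. It was 0.77 ± 0.29 higher in CPS (SE, limma p = 0.0219, exact permutation p = 0.0303). In LD its mean of 2.91 and 5 of the 6 arrays were below the dim level, so the LD side of this difference is not above that level. The call held in all 12 fits that left out 1 array, at 0.52 to 0.93. Without both CPS replicates 1 and 6 the difference was 0.38 and did not pass.

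Acta1 encodes the actin of the skeletal thin filament. LD values ran from 4.03 to 6.28 (median 5.36) and CPS values from 4.60 to 9.21 (median 6.40). CPS replicate 1 had the highest value and CPS replicate 6 the second, 7.74. CPS replicate 5 was also above all LD arrays, at 6.84, and the other 3 lay within the LD range. The difference of 1.34 ± 0.69 (SE) did not pass the test (limma p = 0.0767, exact permutation p = 0.113), and it was 0.81 without CPS replicate 1 and 0.39 without both.

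Myh3, the embryonic myosin heavy chain, behaved in the same order. It ranged from 3.29 to 5.64 in LD (median 4.11) and from 3.46 to 8.54 in CPS (median 5.49). The top CPS values were 8.54 in replicate 1 and 6.82 in replicate 6, and only 2 CPS arrays exceeded the highest LD array. The difference, 1.44 ± 0.74 (SE), did not pass (limma p = 0.0756, exact permutation p = 0.117), and it was 0.86 without CPS replicate 1 and 0.42 without CPS replicates 1 and 6.

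Myl11, the fast myosin regulatory light chain, ranged from 3.41 to 5.05 in LD and from 3.79 to 7.54 in CPS. Tnnt3, the fast troponin T that anchors troponin to tropomyosin, ranged from 4.50 to 5.69 in LD and from 4.01 to 7.51 in CPS. Tnnt1, the slow troponin T, was at 2.98 ± 0.10 (SD, n = 6) in LD and at 3.61 ± 1.09 in CPS, where its highest array was 5.56. In each of these genes the highest CPS value was that of replicate 1 and the next that of replicate 6. Their differences were 0.98, 0.74 and 0.63 over all arrays and 0.08, 0.09 and 0.01 without those 2 arrays. None passed the test.

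Actn3, the alpha-actinin that cross-links actin at the Z-disc of fast fibres, had a difference of 0.38 (limma p = 0.0660, exact permutation p = 0.0887), and of 0.24 without CPS replicate 1. Mybph, a myosin-binding protein, had a CPS replicate 1 value of 4.80 against a next highest of 3.57 in LD replicate 5. Mybpc2, the fast myosin-binding protein C, differed by 0.07 and was highest in CPS replicate 4, not in replicate 1.

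Myh4, the heavy chain of adult fast glycolytic fibres, went the other way. LD values ran from 1.88 to 2.19 (median 1.94) and CPS values from 1.23 to 1.76 (median 1.51). The groups did not overlap, as in 0.295% of all genes, and Myh4 was the member with the lowest p. It was 0.47 ± 0.10 lower in CPS on the log2 scale (SE, limma p = 0.000552, exact permutation p = 0.00216, the smallest that 924 relabelings allow). The call held in all 12 fits with 1 array left out. All 12 values were below the dim level, so this is a difference within the range of olfactory receptor genes.

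**Figure D2:**
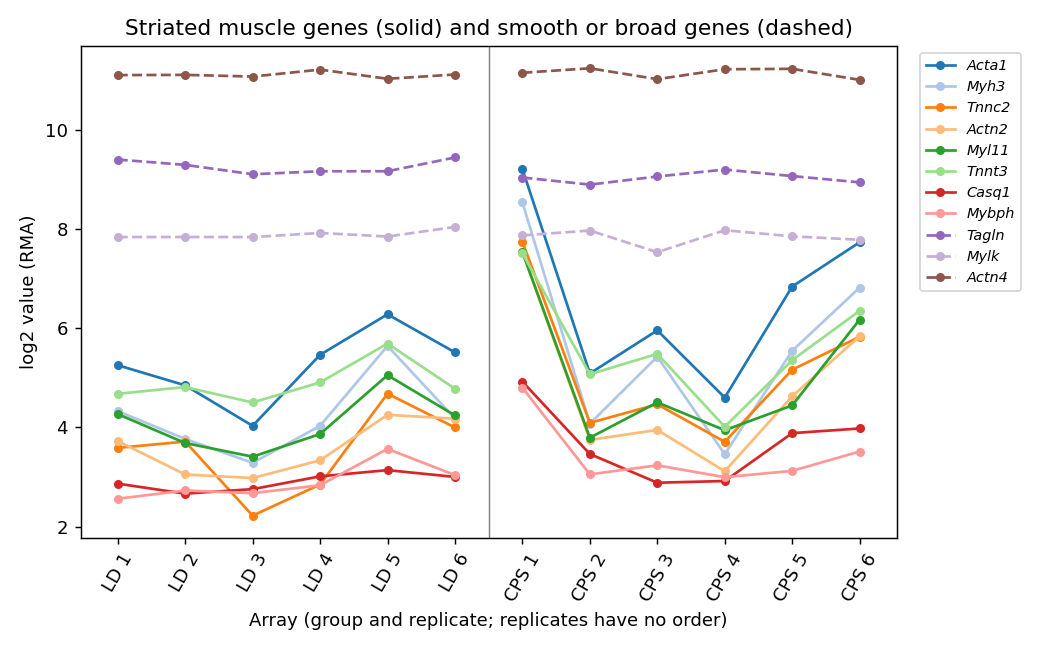
Log2 values of 11 contractile genes on each of the 12 arrays, striated muscle genes as solid lines and smooth muscle or broad genes as dashed lines. Acta1, Myh3, Tnnc2, Actn2 and Myl11 peak in CPS replicate 1 and again in CPS replicate 6, while Tagln, Mylk and Actn4 are nearly level.

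The genes shared by skeletal muscle and heart were also mostly highest in CPS replicate 1, with smaller differences. All 11 had a positive difference, against 7799 of 14557 over all genes. Of the 11, 1, Tnnt2, was called, and 10 did not pass. CPS replicate 1 was the highest of the 12 arrays in 10 of the 11, and CPS replicate 6 was second in 5 of those. The median difference was 0.43 over all arrays, 0.20 without CPS replicate 1 and 0.04 without both.

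Actn2, the Z-disc alpha-actinin of skeletal muscle and heart, had the largest difference of this class. It ranged from 2.98 to 4.25 in LD (median 3.53) and from 3.12 to 7.53 in CPS (median 4.29), with CPS replicate 6 second at 5.84. The difference was 1.21 ± 0.63 (SE, limma p = 0.0789, exact permutation p = 0.108), and 0.67 without CPS replicate 1.

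Tnnt2, the troponin T of heart and of embryonic skeletal muscle, was among the members with a clear signal. Its LD values ran from 6.86 to 7.15 (median 7.04) and its CPS values from 7.03 to 7.54 (median 7.20). The groups overlapped, with 4 CPS arrays above the highest LD array. It was 0.21 ± 0.10 higher in CPS (SE, limma p = 0.0466, exact permutation p = 0.0390). This call was lost in 9 of the 12 fits that left out 1 array, among them the fit without CPS replicate 1 (difference 0.15), and held only without CPS replicate 3, CPS replicate 4 or LD replicate 6.

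Myom1, which ties myosin filaments together at the M-band, ranged from 2.93 to 3.44 in LD (median 3.21) and from 3.38 to 4.93 in CPS (median 3.44). CPS replicate 1 was far above the next array, CPS replicate 4 at 3.68. The difference of 0.52 ± 0.24 (SE) missed the threshold in limma (p = 0.0508) and had an exact permutation p of 0.00866. Without CPS replicate 1 it was smaller and passed (0.28), as it did without CPS replicates 1 and 6 (0.30).

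Casq2, the calsequestrin of slow fibres and heart, was at 4.25 ± 0.12 (SD, n = 6) in LD and at 4.91 ± 1.14 in CPS. Its CPS value was 6.91 in replicate 1 and 5.40 in replicate 6, and without these the difference was 0.04. Myom2, a further M-band protein, and Myh7, the slow and cardiac myosin heavy chain, were dim in their mean but reached 4.57 and 4.25 in CPS replicate 1. Tnnc1, the slow and cardiac troponin C, was at 5.37 ± 0.31 (SD, n = 6) in LD and 5.66 ± 0.45 in CPS, and did not pass. Myl3, Myom3, Sgca and Myh7b had differences of 0.43, 0.21, 0.14 and 0.05, and none passed.

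The genes of heart alone did not follow this order. None of the 7 was called, 1 of the 7 had a positive difference, and CPS replicate 1 was the highest array in 0 of them. Of the 7, 5 were dim, all but Tnni3 and Mylk3, so the class rests mostly on dim rows. Myh6, the atrial myosin heavy chain, ranged from 1.92 to 3.12 in LD and from 1.97 to 2.46 in CPS. Myl7, the atrial light chain, ranged from 2.31 to 2.82 in LD and from 2.31 to 2.79 in CPS. Both were dim, and their groups overlapped almost fully. Tnni3, the cardiac troponin I, was at 4.34 ± 0.36 (SD, n = 6) in LD and at 4.37 ± 0.27 in CPS, a difference of 0.03 (limma p = 0.882, exact permutation p = 0.913). Mylk3, the cardiac light chain kinase, differed by -0.11 and Mybpc3, the cardiac myosin-binding protein C, by -0.01. Tnni3k, a kinase that binds cardiac troponin I, had a second row that also missed the threshold in limma, with a difference of 0.13.

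Smooth muscle genes were above the dim level in every pool. Of the 4, 1 was called lower and none higher. Tagln, or SM22, an actin-binding protein of smooth muscle, ranged from 9.11 to 9.45 in LD (median 9.23) and from 8.90 to 9.20 in CPS (median 9.05). The groups overlapped at the edge, and no CPS array exceeded the highest LD array. It was 0.23 ± 0.08 lower in CPS on the log2 scale (SE, limma p = 0.0148, exact permutation p = 0.00866). The call held in all 12 fits with 1 array left out, and was lost when each array was centred on its median (difference -0.19).

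Myl9, the smooth muscle regulatory light chain, and Mylk, the kinase that switches it on, ranged from 8.76 to 9.04 and from 7.53 to 8.04 over the 12 arrays, and each had a difference of -0.06. Actg2, the actin of visceral smooth muscle, was at 5.27 ± 0.25 (SD, n = 6) in LD and at 5.27 ± 0.48 in CPS, the widest range of the class. Its highest value, 6.08, was that of CPS replicate 1, and without that array its difference was -0.16. None of these 3 genes passed the test.

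Of the 11 genes placed with cells of many kinds, 1 was called higher and 10 did not pass. Sgcd, delta-sarcoglycan of the complex that ties the muscle cytoskeleton to the matrix, ranged from 3.45 to 3.97 in LD (median 3.73) and from 3.52 to 4.34 in CPS (median 4.10), with overlap. It was 0.32 ± 0.14 higher (SE, limma p = 0.0466, exact permutation p = 0.0606), highest in CPS replicate 2, and the call was lost in 8 of 12 fits that left out 1 array. The other 10, among them the non-muscle alpha-actinins Actn1 and Actn4, the tropomyosins Tpm3 and Tpm4 and the light chains Myl12a and Myl12b, had differences from -0.16 for Myl6b to 0.06 for Sgcb. Myl10, which was not placed, was dim and differed by -0.03.

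**Figure D3:**
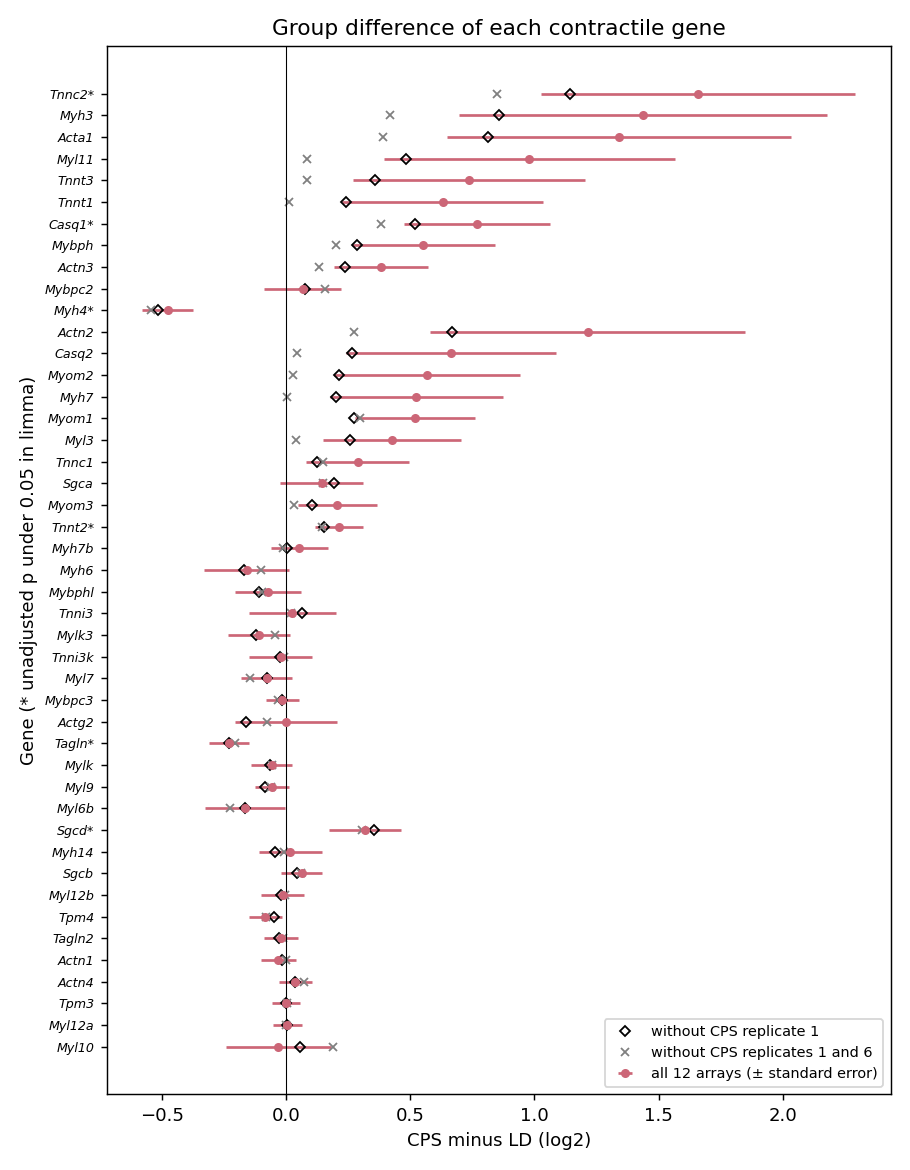
CPS minus LD on the log2 scale for each of the 45 contractile genes, with its standard error over all 12 arrays (filled circles), without CPS replicate 1 (diamonds) and without CPS replicates 1 and 6 (crosses). Most skeletal and shared genes move toward 0 as these arrays are left out. Myh4, Mybpc2 and Sgca lie further from 0 without them, and most heart, smooth and broad genes move less.

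The muscle classes were then compared array by array, as the mean log2 value over the members of a class. The skeletal mean was 3.68 ± 0.32 (SD, n = 6) in LD, from 3.24 in replicate 3 to 4.21 in replicate 5. In CPS it was 4.41 ± 0.94, from 3.50 in replicate 4 to 6.04 in replicate 1. CPS replicates 6 and 5 followed at 4.94 and 4.25, so 3 CPS arrays lay above all LD arrays and the other 3 within the LD range. The difference was 0.73, 0.41 without CPS replicate 1 and 0.20 without CPS replicates 1 and 6.

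The shared class was at 3.68 ± 0.10 in LD and at 4.12 ± 0.59 in CPS (SD, n = 6), with 5.20 in CPS replicate 1 and 4.38 in CPS replicate 6. Its difference was 0.44, and 0.22 without CPS replicate 1. The heart class was at 2.73 ± 0.11 and 2.67 ± 0.06, the smooth class at 7.84 ± 0.08 and 7.76 ± 0.15, and the broad class at 8.33 ± 0.05 and 8.34 ± 0.08. The differences of these 3 classes, -0.06, -0.08 and 0.01, were smaller than the larger of the 2 group SDs. Without CPS replicate 1 the smooth class differed by -0.13, which was larger than the SD of the other 5 CPS arrays, 0.10. These class means carry no test, since the genes were chosen with results of these data known.

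**Figure D4:**
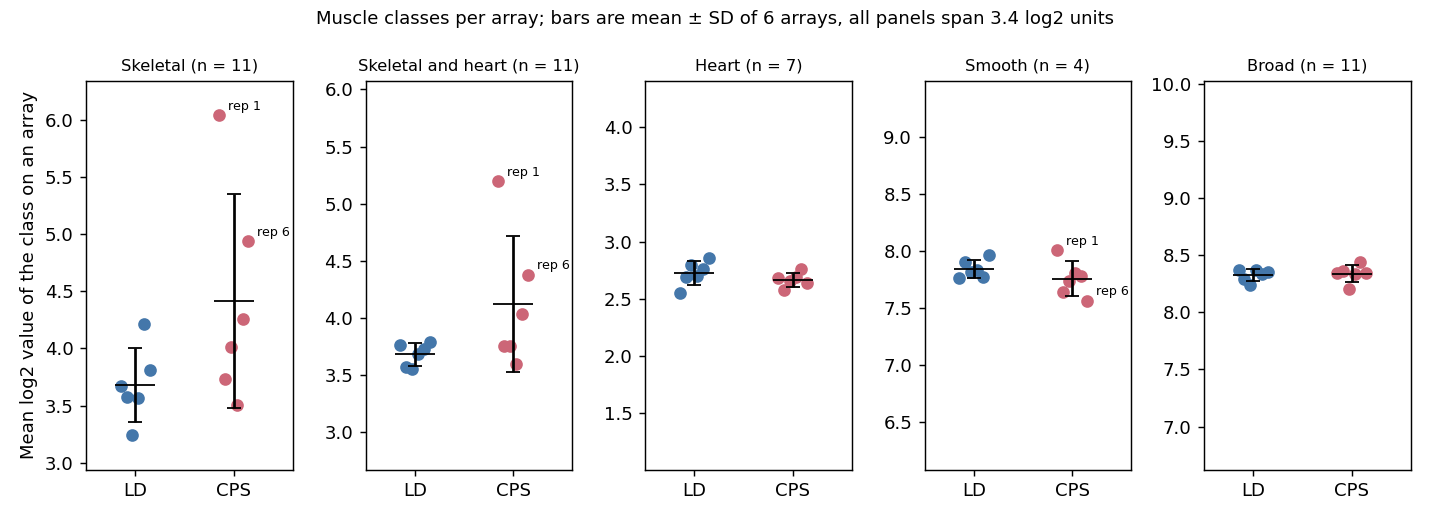
Mean log2 value of each muscle class on each array (points), with the mean ± SD of 6 arrays, for LD and CPS. CPS replicates 1 and 6 lead the skeletal class at 6.04 and 4.94, and in the smooth class the same arrays are the highest and the lowest of the 12. Of the 4 smooth genes, only Actg2 was highest in CPS replicate 1.

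Skeletal and smooth muscle genes were also set against each other within each array, where only the change between arrays is read. The skeletal mean minus the smooth mean was -4.16 ± 0.34 (SD, n = 6) in LD, from -4.57 to -3.56. In CPS it was -3.34 ± 0.87, from -4.30 in replicate 4 to -1.97 in replicate 1, with -2.63 in replicate 6. Again 3 CPS arrays were above the LD range, by little in replicate 5 (-3.53). The difference between the groups was 0.82, and 0.30 without CPS replicates 1 and 6.

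The spread between pools also differed by class. The median SD of the skeletal genes was 0.36 in LD and 1.09 in CPS, and the CPS SD was the larger in all 11 of them. For shared genes it was 0.26 and 0.61, larger in CPS in 10 of 11. Without CPS replicate 1 the CPS value was 0.59 for skeletal genes, larger than in LD in 9 of 11, and 0.32 for shared genes, larger in 7 of 11. Without CPS replicates 1 and 6 it was 0.36 and 0.26. For heart genes it was 0.27 and 0.17, larger in CPS in 2 of 7, and for smooth muscle genes 0.11 and 0.14. Within LD, replicate 5 was the highest array in 7 of the 11 skeletal genes and replicate 3 the lowest in 6.

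Other skeletal muscle genes, outside the contractile families, were also mostly highest in CPS replicate 1. All 20 measured of 34 listed had a positive difference, against 7799 of 14557 over all genes. The difference was positive in 14 without CPS replicate 1 and in 10 without CPS replicates 1 and 6. Of the 20, 1 was called higher and 19 did not pass. The median difference was 0.21, and 0.04 without CPS replicate 1, which was the highest array in 15 of the 20. Their mean ranged from 3.11 to 3.37 in LD and from 3.07 to 4.41 in CPS, and 10 of the 20 were dim. Ckm, the muscle creatine kinase, was at 4.32 ± 0.27 in LD and 5.27 ± 1.44 in CPS (SD, n = 6), with 7.51 in CPS replicate 1 and 6.19 in CPS replicate 6. Klhl41, a sarcomere assembly factor, was at 6.07 in CPS replicate 1 against a next highest of 4.03. Jph1, which joins the surface and calcium store membranes of skeletal muscle, was the called gene, 0.26 higher (limma p = 0.0282, exact permutation p = 0.0325) and highest in CPS replicate 4. Its call was lost in 7 of the 12 fits that left out 1 array.

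The factors that set the muscle lineage were low. Myod1 was at 3.33 ± 0.26 in LD and at 3.48 ± 0.33 in CPS (SD, n = 6), and Myog, the myogenin gene, at 2.59 ± 0.30 and 2.81 ± 0.56. CPS replicate 1 had the highest value of both, 3.97 and 3.82. Myf5 and Myf6 differed by 0.05 and 0.00.

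**Figure D5:**
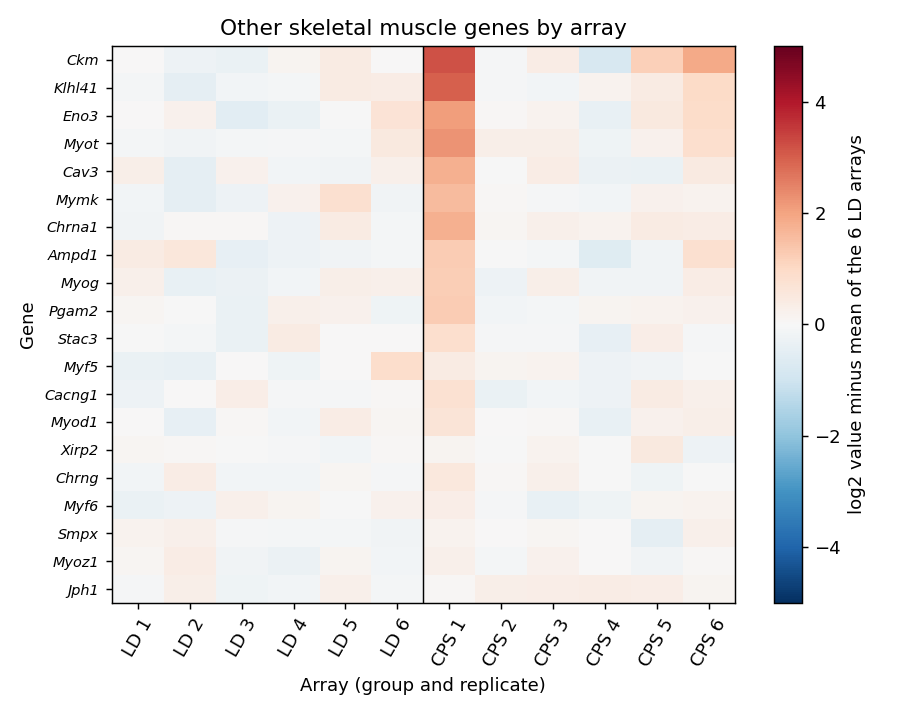
Heat map of 20 skeletal muscle genes outside the contractile families (rows) over the 12 arrays (columns), coloured by the log2 value minus the mean of the 6 LD arrays. Ckm, Klhl41 and most other rows are highest in CPS replicate 1.

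Of 7 measured heart genes outside these families none was called. Sln, which restrains the calcium pump of atrial and skeletal muscle, differed by 1.11 (limma p = 0.0546, exact permutation p = 0.0455) with 6.78 in CPS replicate 1, and Csrp3 reached 5.80 there. The natriuretic peptide genes Nppa and Nppb differed by 0.00 and -0.07. Of 6 further smooth muscle genes none was called, and their mean ranged from 4.89 to 5.06 in LD and from 4.87 to 5.11 in CPS. The same held for 8 genes of pericytes and other mural cells, at 5.97 to 6.28 and 5.97 to 6.37, and for both ureter mesenchyme genes.

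Some markers of other tissues were called too. Of 6 tendon and connective tissue genes 2 were called higher, Dpt (0.97, limma p = 0.00506, exact permutation p = 0.0108) and Mfap5 (0.84, exact permutation p = 0.0216). The mean of the 6 ranged from 3.54 to 4.20 in LD and from 3.98 to 4.55 in CPS, highest in CPS replicate 5 and next in CPS replicate 1. Of 6 adrenal cortex genes, 5 of them dim, 4 were called higher in limma (Cyp11a1, Cyp11b1, Cyp21a1 and Akr1b7, of steroid-producing cells). Their exact permutation p were 0.0887, 0.0238, 0.0130 and 0.0606, in that order. The calls of Cyp11a1 and Akr1b7 were lost in 8 and 5 of the 12 fits that left out 1 array. The other genes, Cyp11b2 and Mc2r, differed by -0.14 and -0.01. The mean of the 6 ranged from 2.31 to 2.83 in LD and from 2.41 to 3.56 in CPS, highest in CPS replicate 6. Of 10 liver genes 1 was called higher, Cps1 of the urea cycle (0.86, exact permutation p = 0.0498), highest in CPS replicate 1. Without that array its difference was 0.67 and did not pass in limma. The liver genes had a mean of 5.13 ± 0.84 in LD and of 5.82 ± 0.79 in CPS (SD, n = 6), where the lowest arrays were at 4.37 and 4.93 and CPS replicate 2 was the highest. Of 4 fat genes 1 was called higher, Cidec (0.27, exact permutation p = 0.0325), and 1 lower, Fabp4 (-0.39, exact permutation p = 0.0325). Without CPS replicate 1 these were 0.23 and -0.32, and neither passed in limma. The 3 red cell genes gave no call. None of the 13 kidney epithelial genes was called, and of 4 stromal genes Foxd1 was higher (0.19, exact permutation p = 0.00433) and Tcf21 lower (-0.21, exact permutation p = 0.0152). The part of other tissues in the values of the skeletal genes was not tested.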

How the data were processed

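Fetal kidney RNA was hybridised to Affymetrix Rat Gene 2.1 ST arrays. The authors deposited log2 values made by RMA, which corrects background, normalizes quantiles and summarizes probes. The Affymetrix Expression Console, version not stated, appears in the submitters' processing notes. Quantile normalization makes values relative. The deposited row values still had array medians from 3.31 to 3.50, so the arrays do not share 1 distribution. Of 36685 rows, 14824 carried 1 symbol, 829 several and 21032 none, and no gene was named from a row with several. Scans, detection calls and RT-qPCR were not analysed here. With 6 pools a group, precision is limited by their number.

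CPS and LD were compared over all rows with limma 3.58.1 in R 4.3.3 (lmFit and eBayes, two-sided), at an unadjusted p under 0.05 and after Benjamini-Hochberg adjustment over all rows. The fit was tested on simulated data. Exact two-sided permutation tests used all 924 relabelings of the pools. The p-values measure the spread between pools, read here as of different mothers. Members and gene lists were chosen with earlier results of these data known. Myl11 was placed with skeletal genes through its RefSeq synonym Mylpf after the files were read. Named are members past the threshold, the 2 of lowest p and the 2 of widest range in each class above the dim level, 17 measured defining genes, and markers past the threshold. Other members and markers, chosen after their values were seen, are given to account for each class. Alternatives were the methods' test, the replicate number as a block, an intensity trend, weights on arrays, centring on the median, quantile normalization again, a filter on low rows, other row rules, medians over members and leaving out each array. Leaving out CPS replicates 1 and 6 together was added after seeing the data.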

Additional observations from a re-analysis of the deposited data

Results flagged for a closer look

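The 25 contractile genes named by rule and the 5 class means were examined in LD and in CPS, which gave 60 sets of 6 arrays. In 4 sets the gap of an extreme array to its neighbour was a larger part of the range than Dixon's 95% critical value allows. For sets chosen without regard to their values, chance gives about 1 in 20. Some genes here were named for a wide range or a low p, so that rate cannot be applied. Myom1 was at 4.93 in CPS replicate 1, and the next CPS array was at 3.68. Tnnt3 was at 5.69 in LD replicate 5, against a next LD value of 4.91. Casq2 was lowest in LD replicate 5, at 4.02, with the next LD value at 4.25. Myl6b was lowest in CPS replicate 3, at 2.51, with the next CPS value at 3.12. Only 1 of these 4 was a high value of CPS replicate 1. The gap is small where another array is also high, as in Acta1, at 9.21 in CPS replicate 1 and 7.74 in CPS replicate 6. The rule therefore cannot show how often CPS replicate 1 stood high.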

How the results depend on the processing

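The 4 contractile genes called higher became 1 to 9 when 1 array was left out (1 without LD replicate 3, 2 without LD replicate 2, 9 without CPS replicate 4, where 2.57%, 3.06% and 2.61% of all genes were called higher), while the count called lower stayed at 2. Without CPS replicates 1 and 6, which was added after seeing the data, 1 was higher (Myom1) and 1 lower (Myh4), against 4.31% and 1.93% of all genes. The count of lower genes was also 1 with arrays centred on the median, against 0.659% of all genes. It was 1 among rows at or above the median level, against 2.24% of the genes there. The heart class differed by -0.19 as a median over members, against -0.06 as a mean, and the cause was not tested. With 1 array left out, the class differences ran from 0.41 to 0.92 for skeletal, 0.22 to 0.54 for shared, -0.10 to -0.03 for heart, -0.13 to -0.05 for smooth and -0.01 to 0.04 for broad genes, and skeletal minus smooth from 0.54 to 1.01. No called value changed sign. Among single named genes, 435 values kept their side of the threshold, 23 fell below it and 17 passed it. Same-numbered LD and CPS arrays did not deviate together over all rows (correlations from -0.06 to 0.05 in 6 pairs), and the main fit used no pairing. An effect shared by same-numbered arrays in few genes was not tested. With the replicate block 6 members were called higher and 2 lower, against 2.68% and 1.54% of all genes, and 4 of the 25 named members changed their call: Sgcd (0.32) was lost and Actn2, Myom1 and Tnnc1 passed. Sgcd was also lost under the methods' unpaired one-way test. Dim rows limit Myh4, Myh7 and most heart genes, and the LD side of Casq1, Mybph and Tnnt1. Single LD arrays of other genes, such as Tnnc2, were also below the dim level.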

Other observations

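Of the 41 genes at least 1 log2 unit higher in CPS replicate 1 than in any other array, 29 were not members, and 7 of these were in the list of other skeletal muscle genes. Others in this set encode digestive enzymes of the exocrine pancreas. The 4 below had the largest gaps to the next array, 2.60 to 3.91, against 2.04 for the following gene, Klhl41. These 4 pancreatic genes were chosen after their values were seen and are given as values. Ctrb1, a chymotrypsinogen, was at 9.25 in CPS replicate 1, and the next array, LD replicate 2, was at 5.92. Pnliprp1, a pancreatic lipase relative, was at 8.11 against 4.19 in LD replicate 2. Cpa1, a carboxypeptidase, was at 7.25 against 4.30 in LD replicate 2, and Cel, the bile salt-dependent lipase, was at 5.80 against 3.21 in LD replicate 1. CPS replicate 6, second in most skeletal genes, was second in none of these 4.

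One row is annotated to Myh1, Myh8 and Myh2 together, neighbouring skeletal myosin heavy chain genes, and so names no member. It ranged from 4.15 to 4.61 in LD and from 4.26 to 4.55 in CPS. CPS replicate 1, at 4.31, was among the lower arrays there, unlike in Myh3.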
